A study of Mus musculus with 12 samples.

Results

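Brown adipocytes are fat cells that burn fuel to make heat, and the 8 genes described here, Ucp1, Cidea, Otop1, Elovl3, Dio2, Zic1, Lhx8 and Prdm16, are used to recognise them. Their transcripts were followed in skeletal muscle of C57Bl/6 mice on Affymetrix arrays. All 8 were taken as a named gene list, and each was represented by every probe set, a group of short probes read as 1 signal, that carried its symbol and no other. That gave 14 probe sets of the 34945 with 1 symbol, for 8 of 18193 genes. Ucp1, Cidea, Otop1, Elovl3 and Lhx8 had 1 probe set each, Zic1 had 2, Dio2 3 and Prdm16 4.

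The 12 arrays fell into 3 groups of 4. The 5-day group had eaten a high-fat diet (fat as 46% of calories) for 5 days and the 42-day group for 42 days. The chow group stayed on standard food, with fat as 13% of calories, which every mouse had eaten up to the age of 6 weeks. The labels give neither the muscle sampled, the sex, nor how old the chow mice were when sampled, so time on the diet and age cannot be told apart. They do not state that the 4 replicates were separate animals, and p-values measure only the spread between these samples.

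In a brown adipocyte, cold or feeding releases noradrenaline onto beta-adrenergic receptors, cyclic AMP rises, lipolysis frees fatty acids, and these open UCP1 in the inner mitochondrial membrane so that protons return to the matrix without ATP being made. PRDM16 holds precursors in the brown rather than the muscle fate, since brown fat and skeletal muscle share embryonic precursors, and classical brown fat lies against the muscles of the back and neck. Skeletal muscle fibres themselves make little or no UCP1, and fat cells lie between and around the fibres of a dissected muscle.

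The start of the gene is shown for 3 members: Ucp1 and Otop1, which correlated over the arrays, and Dio2, whose probe sets disagreed. No sequence is shown for Cidea and Elovl3, the 2 genes called by their brightest probe set in the fit over all genes below. The 250 bases before the start site are given 5′ to 3′ on the gene's strand, from RefSeq on build GRCm38.p6: chr8:83290098-83290347 (plus strand) for Ucp1, chr5:38277154-38277403 (plus) for Otop1 and chr12:90739039-90739288 (minus) for Dio2. Capitals mark exact matches to the cyclic AMP response element TGACGTCA or its core TGACG, to the TATA box TATAAA or the variant TATATA, and to the nuclear receptor motif AGGTCA.
Ucp1: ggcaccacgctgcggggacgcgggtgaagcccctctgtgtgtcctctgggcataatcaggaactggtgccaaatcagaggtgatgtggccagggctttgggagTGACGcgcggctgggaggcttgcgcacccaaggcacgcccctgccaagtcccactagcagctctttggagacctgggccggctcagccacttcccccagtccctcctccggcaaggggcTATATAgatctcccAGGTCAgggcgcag
Otop1: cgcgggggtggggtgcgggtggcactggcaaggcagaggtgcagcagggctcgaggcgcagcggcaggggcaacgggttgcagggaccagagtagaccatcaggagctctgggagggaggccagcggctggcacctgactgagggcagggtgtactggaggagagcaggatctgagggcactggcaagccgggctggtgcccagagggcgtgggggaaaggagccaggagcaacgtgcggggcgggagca
Dio2: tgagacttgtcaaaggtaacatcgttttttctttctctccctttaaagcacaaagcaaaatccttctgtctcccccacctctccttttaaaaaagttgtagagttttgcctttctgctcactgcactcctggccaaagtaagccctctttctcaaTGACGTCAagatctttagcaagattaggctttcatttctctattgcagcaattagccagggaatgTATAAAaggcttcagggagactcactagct

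Both strands were searched, and TGACG is also counted inside TGACGTCA. The Dio2 window held the full response element at bases -95 to -88 and a TATA box at -30 to -25. The full element was in 1.55% of 32851 promoter windows of that length, the TATA box in 12.37% and TGACG in 17.77%. The Ucp1 window held TGACG at -147 to -143, TATATA at -28 to -23 and AGGTCA at -14 to -9, letters found in 17.77%, 5.25% and 14.02% of windows. None of these motifs, nor the palindromic site of the EBF factors (0.78% of windows), was in the Otop1 window, where 70.0% of bases were G or C, against 64.8% for Ucp1, 41.6% for Dio2 and a median of 52.4% over all windows. A match describes the letters only.

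The tissue label was checked first. The 11 skeletal muscle fibre markers measured had mean log2 signals of 14.48 to 14.57 in the 5-day arrays, 14.50 to 14.55 in the 42-day arrays and 14.39 to 14.58 in the chow arrays, near the top of the scale, and 0 of 11 passed the test in any comparison. Signals were log2 values between 3.67 and 15.46. Array pairs correlated at 0.9909 to 0.9976 over the 34945 probe sets with 1 symbol, and the number of arrays limits the precision. Because an array reports a signal for every probe set, a dim one is not a count of 0. The members differed widely in brightness: Cidea averaged above 73.3% of the probe sets other than controls, Ucp1 above 59.3%, Elovl3 above 46.2%, Otop1 above 10.8% and Lhx8 above 7.6%.

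UCP1 is the proton carrier that defines the brown adipocyte. Ucp1 had log2 signals of 7.18, 7.88, 7.47 and 7.19 in 5-day replicates 1 to 4, 7.41, 7.73, 7.32 and 8.96 in 42-day replicates 1 to 4, and 7.50, 8.72, 9.58 and 9.82 in chow replicates 1 to 4. Of the chow arrays, replicate 1 lay within the range of the 5-day arrays and the other 3 lay above it, so the groups overlapped. Among the 42-day arrays only replicate 4 was above every 5-day array. The mean was 7.43 ± 0.33 at 5 days, 7.86 ± 0.76 at 42 days and 8.90 ± 1.05 on chow (SD, n = 4). Ucp1 was at -1.47 ± 0.42 log2 units at 5 days against chow (± SE, adjusted p = 0.0621 by limma over all genes) and at -1.05 ± 0.42 at 42 days against chow (adjusted p = 0.165), and neither passed the threshold of 0.05. Between 42 and 5 days the difference was 0.42 ± 0.42 (adjusted p = 0.509). Chow arrays alone spanned 2.32 log2 units, more than either difference.

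CIDEA coats lipid droplets and enlarges them in brown fat. Cidea had 8.22, 8.11, 8.38 and 8.12 in 5-day replicates 1 to 4, 8.01, 8.93, 7.92 and 9.52 in 42-day replicates 1 to 4, and 8.35, 9.82, 10.23 and 11.05 in chow replicates 1 to 4. Again chow replicate 1 stood with the high-fat arrays and chow replicate 4 was highest of all 12. The mean was 8.21 ± 0.13 at 5 days, 8.59 ± 0.77 at 42 days and 9.86 ± 1.13 on chow (SD, n = 4). Cidea fell at 5 days against chow by 1.65 ± 0.44 on the log2 scale, 3.14-fold lower (limma, adjusted p = 0.0498), although the groups overlapped through chow replicate 1, which was below 5-day replicate 3. At 42 days it was at -1.27 ± 0.44 (adjusted p = 0.105), and 42 against 5 days differed by 0.38 ± 0.44 (adjusted p = 0.565). Its adjusted p sat at the threshold: over 22 alternative settings it ran from 0.0219 to 0.576, and it stayed under 0.05 in 5 of them.

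OTOP1 is a proton channel found at high level in brown fat. Otop1, a dim probe set, had 5.13, 5.20, 5.14 and 5.37 in 5-day replicates 1 to 4, 5.41, 5.43, 5.34 and 5.56 in 42-day replicates 1 to 4, and 5.29, 5.43, 5.87 and 5.95 in chow replicates 1 to 4. The 2 highest arrays were chow replicates 4 and 3, while chow replicates 1 and 2 lay among the high-fat arrays, and chow replicate 1 was below 5-day replicate 4. The mean was 5.21 ± 0.11 at 5 days, 5.44 ± 0.094 at 42 days and 5.63 ± 0.33 on chow (SD, n = 4). Otop1 was at -0.43 ± 0.12 at 5 days (adjusted p = 0.0592) and -0.20 ± 0.12 at 42 days (adjusted p = 0.370), with 0.23 ± 0.12 between 42 and 5 days (adjusted p = 0.206).

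**Figure D1:**
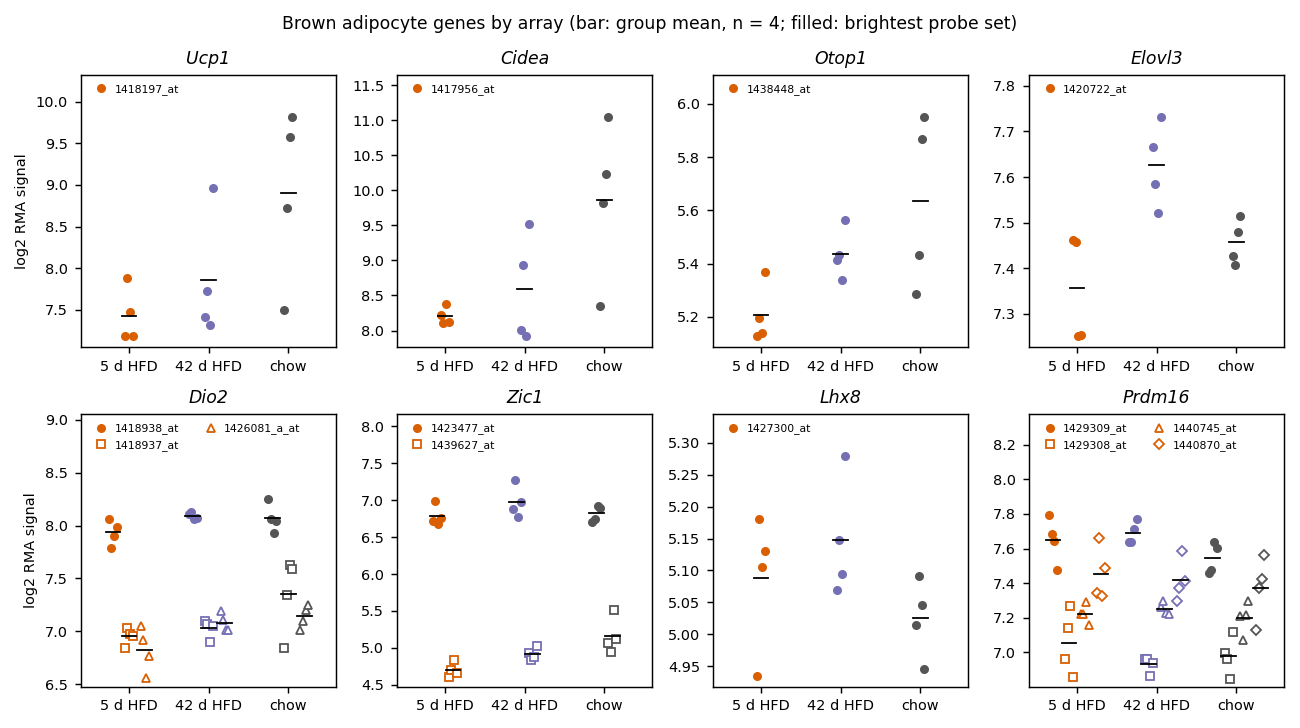
Log2 RMA signal (y axis) of the 14 probe sets of the 8 brown adipocyte genes in each of the 12 arrays, with the 5-day group on the left, the 42-day group in the middle and the chow group on the right of each panel; each point is an array, filled for a gene's brightest probe set and open for others, and the bar is the group mean (n = 4). In Ucp1 and Cidea chow replicate 1, at 7.50 and 8.35, sits well below the other chow arrays, and the open squares of Dio2 and Zic1 show probe sets that part from the filled one.

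Leaving out single arrays changed which of these 3 genes passed. Without chow replicate 1, Ucp1 was at -1.94 (adjusted p = 0.0278), Cidea at -2.16 (0.0219) and Otop1 at -0.54 (0.0384) at 5 days against chow, all past the test. At 42 days against chow, Ucp1 was then at -1.52 (0.0211) and Cidea at -1.77 (0.0105), also past it. Without any other single array, none of these 3 genes passed in either comparison, and the 5-day call of Cidea ended on leaving out any of the other 11 arrays (adjusted p up to 0.127). Chow replicate 1 was the lowest chow array in all 3 genes. Leaving it out therefore raises their chow means, narrows their chow range and enlarges these differences by construction. Over all genes, 139 were called at 5 days against chow without it, against 692 with every array kept. At 42 days against chow the counts over all genes were 1079 without it and 1011 with every array kept. Chow replicate 1 was labelled like the other chow arrays and is kept in the values above.

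ELOVL3 lengthens very long chain fatty acids, is induced by cold in brown fat and is also made in skin glands and liver. Elovl3 had 7.46, 7.46, 7.25 and 7.25 in 5-day replicates 1 to 4, 7.67, 7.59, 7.52 and 7.73 in 42-day replicates 1 to 4, and 7.43, 7.41, 7.48 and 7.52 in chow replicates 1 to 4. Every 42-day array was above every 5-day and every chow array. The mean was 7.36 ± 0.12 at 5 days, 7.63 ± 0.092 at 42 days and 7.46 ± 0.050 on chow (SD, n = 4). Elovl3 rose at 42 days against 5 days by 0.27 ± 0.065 on the log2 scale, 1.21-fold (limma, adjusted p = 0.0273). Against chow it was at 0.17 ± 0.065 at 42 days (adjusted p = 0.142) and at -0.10 ± 0.065 at 5 days (adjusted p = 0.350). It passed in 14 of 21 alternative settings, with adjusted p from 0.0230 to 0.110. It did not pass under quantile normalization (0.110) or without 5-day replicate 2, 3 or 4 or 42-day replicate 1, 2 or 4 (0.0541 to 0.0853). The median change of all probe sets in its signal decile was 0.078 at 42 against 5 days and -0.065 at 5 days against chow.

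Hepatocyte markers are given beside this result because Elovl3 is also a liver gene. The mean log2 signal of the 4 measured, of 5 listed, ran from 8.24 to 9.65 in 5-day arrays, from 9.46 to 10.75 in 42-day arrays and from 8.48 to 9.01 in chow arrays, and all 4 rose at 42 against 5 days. Their summed linear signal ran from 1363 to 4103 in 5-day arrays, from 3864 to 10148 in 42-day arrays and from 1557 to 2349 in chow arrays. Against chow 3 of the 4 rose at 42 days, Alb by 2.19, Apoa1 by 1.81 and Ttr by 0.54, and none was called at 5 days. Albumin (Alb) was 11.91, 11.79, 11.17 and 12.61 in 42-day replicates 1 to 4, the same order as Elovl3 there. In 5-day replicates 1 to 4 it was 8.82, 9.53, 10.43 and 11.08, where the 2 arrays lower in Elovl3 were the 2 higher in albumin. The part of liver transcripts in the Elovl3 difference was not tested. The 6 keratinocyte and hair follicle markers had 0 of 6 past the test in each comparison.

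DIO2 turns thyroxine into the active hormone T3 inside the cell, and brown fat and muscle both use it. Its 3 probe sets gave different pictures. The brightest, 1418938_at, had 8.07, 7.79, 7.90 and 7.98 in 5-day replicates 1 to 4, 8.11, 8.13, 8.07 and 8.07 in 42-day replicates 1 to 4, and 8.25, 8.07, 7.93 and 8.04 in chow replicates 1 to 4. The groups overlapped against chow and all values lay within 0.46 log2 units, and the changes were -0.14 ± 0.070 at 5 days (adjusted p = 0.239), 0.024 ± 0.070 at 42 days (0.890) and 0.16 ± 0.070 for 42 against 5 days (0.136).

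Dio2 probe set 1418937_at had 6.84, 7.03, 6.98 and 6.96 in 5-day replicates 1 to 4, 7.10, 7.07, 6.90 and 7.05 in 42-day replicates 1 to 4, and 6.84, 7.34, 7.63 and 7.59 in chow replicates 1 to 4. Here chow replicates 2, 3 and 4 lay above all 8 high-fat arrays and chow replicate 1 was the lowest of all 12. The differences were -0.40 ± 0.13 at 5 days (adjusted p = 0.0831 over all probe sets) and -0.32 ± 0.13 at 42 days (0.132). Dio2 probe set 1426081_a_at had 7.05, 6.92, 6.56 and 6.77 in 5-day replicates 1 to 4, 7.19, 7.10, 7.01 and 7.01 in 42-day replicates 1 to 4, and 7.01, 7.10, 7.21 and 7.25 in chow replicates 1 to 4. The 5-day arrays reached lowest, and the groups overlapped. It was at -0.32 ± 0.090 at 5 days (0.0589), at -0.064 ± 0.090 at 42 days (0.720) and at 0.26 ± 0.090 for 42 against 5 days (0.0848). With the mean of its 3 probe sets in place of the brightest, Dio2 was at -0.28 at 5 days and passed (adjusted p = 0.0304). The Dio2 result therefore depends on which probe set stands for the gene.

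ZIC1 is a zinc finger factor that marks classical brown fat, as against beige fat in white depots, and is also a neural gene. Its brighter probe set, 1423477_at, had 6.72, 6.996, 6.68 and 6.76 in 5-day replicates 1 to 4, 6.88, 7.27, 6.77 and 6.98 in 42-day replicates 1 to 4, and 6.71, 6.75, 6.93 and 6.90 in chow replicates 1 to 4. The 3 groups overlapped, and no change passed, with -0.032 ± 0.099 at 5 days (adjusted p = 0.867), 0.15 ± 0.099 at 42 days (0.393) and 0.19 ± 0.099 for 42 against 5 days (0.208). Zic1 probe set 1439627_at had 4.61, 4.70, 4.83 and 4.67 in 5-day replicates 1 to 4, 4.93, 4.84, 4.88 and 5.02 in 42-day replicates 1 to 4, and 5.06, 4.95, 5.51 and 5.12 in chow replicates 1 to 4. Every 5-day array was below every chow array, as in 6.06% of all probe sets, and below every 42-day array, as in 7.84%. In the fit over all probe sets this one fell at 5 days by 0.46 ± 0.097 (limma, adjusted p = 0.0285). It averaged above 6.1% of probe sets, in the lowest decile of those with 1 symbol, and the median 5-day change in that decile was -0.020. At 42 days it was at -0.24 ± 0.097 (0.131), and 42 against 5 days gave 0.22 ± 0.097 (0.147). The 2 Zic1 probe sets correlated at r = 0.133 over the 12 arrays, not past a permutation test.

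LHX8, a LIM homeobox factor, marks classical brown fat in mouse. Lhx8 had 4.94, 5.18, 5.11 and 5.13 in 5-day replicates 1 to 4, 5.07, 5.15, 5.09 and 5.28 in 42-day replicates 1 to 4, and 5.02, 5.09, 5.05 and 4.95 in chow replicates 1 to 4. The groups overlapped and lay within 0.34 log2 units, and the largest of the 3 differences was 0.12 ± 0.064 at 42 days against chow (adjusted p = 0.284).

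PRDM16 is the coregulator that sets brown fat identity. The brightest Prdm16 probe set, 1429309_at, had 7.79, 7.69, 7.65 and 7.48 in 5-day replicates 1 to 4, 7.64, 7.64, 7.71 and 7.77 in 42-day replicates 1 to 4, and 7.46, 7.48, 7.64 and 7.60 in chow replicates 1 to 4. The groups overlapped, and the differences were 0.11 ± 0.068 at 5 days (adjusted p = 0.351), 0.15 ± 0.068 at 42 days (0.227) and 0.041 ± 0.068 for 42 against 5 days (0.702). The other 3 Prdm16 probe sets had changes between -0.13 and 0.082, and none passed.

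**Figure D2:**
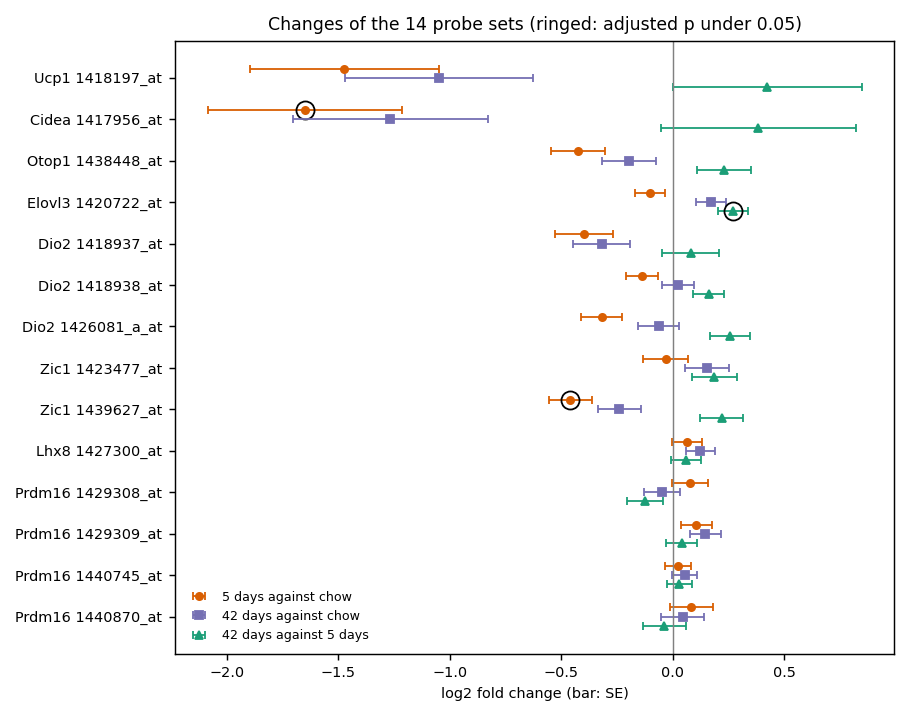
Log2 fold changes of the 14 probe sets in the 3 comparisons, with the x axis in log2 units and bars for the SE; ringed points had an adjusted p under 0.05 over all 34945 probe sets. Ucp1 and Cidea lie farthest below 0 against chow, with wide errors, and the rings lie on Cidea and Zic1 1439627_at at 5 days against chow and on Elovl3 at 42 against 5 days.

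At 5 days against chow 1 of 8 genes was called (Cidea, lower), against 3.80% of all 18193 genes (2.20% called lower). At 42 days against chow 0 of 8 were called, against 5.56%, and at an unadjusted p under 0.05 Cidea and Ucp1 (lower) and Elovl3 and Prdm16 (higher) passed, beside 21.9% of all genes at that p. At 42 against 5 days 1 of 8 was called (Elovl3, higher), against 8.52% (2.75% called higher). At an unadjusted limma p under 0.05, Ucp1, Cidea and Otop1 (lower) passed at 5 days against chow, beside 24.8% of all genes. Elovl3 and Dio2 (higher) passed at that p at 42 against 5 days, beside 31%. For any difference between the 3 groups, the moderated F-test called 2 of 8, Cidea (adjusted p = 0.0447) and Elovl3 (0.0369), against 12.5%. The same F-test over all probe sets called Cidea (adjusted p = 0.0380), Elovl3 (0.0334), Zic1 1439627_at (0.0179) and Dio2 1426081_a_at (0.0478). The share it called over all probe sets is not given. By probe set, 2 of 14 were called at 5 days, Cidea and Zic1 1439627_at, against 3.59% (1.65% called lower). At 42 days against chow 0 of 14 were called, against 10.6%, and at 42 against 5 days 1 of 14, Elovl3, against 7.80%.

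Directions were mixed and depended on the contrast. Of the 8 genes 6 were lower at 5 days (median log2 change -0.12, against -0.010 over all genes), 3 were lower at 42 days (median 0.073, against -0.0125), and 8 were higher at 42 days than at 5 days (median 0.21, against 0.0078). In the 5-day count Zic1 turned higher under quantile normalization (0.032) and median centring (0.0093), and in the last count Prdm16 turned lower under quantile normalization (-0.035). The median over all probe sets moved with brightness. Signal deciles 1 to 6 hold the brightest probe set of every member but Cidea (decile 7). Medians there were -0.065 to -0.020 at 5 days and 0.038 to 0.078 at 42 against 5 days. The 5-day and 42-day comparisons share the chow arrays, and the 42-day against 5-day contrast is the test of their difference. By brightest probe set, only Elovl3 had 42-day arrays all above the 5-day arrays and all above the chow arrays, beside 7.17% and 5.19% of all genes apart in that direction.

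Few pairs of members varied together past the test. Over the 12 arrays 28 pairs of brightest probe sets gave 17 correlations above 0 and 11 below, and 3 of the 28 passed a permutation test of Pearson's r after adjustment over the 28. Ucp1 and Cidea correlated at r = 0.957 (permutation p = 8e-05, adjusted p = 0.00224, 100000 permutations), with Spearman's rho = 0.79 (permutation p = 0.00357, adjusted p = 0.0834). Ucp1 and Otop1 had r = 0.88 (permutation adjusted p = 0.00476) and rho = 0.757 (permutation p = 0.00596, adjusted p = 0.0834). Cidea and Otop1 had r = 0.868 (permutation adjusted p = 0.00476) and rho = 0.673 (permutation p = 0.01967, adjusted p = 0.150). By Spearman's rho 0 of 28 pairs passed, and by Pearson's r 4 had an unadjusted p under 0.05.

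Ucp1 values fell on either side of a gap. The widest gap in Ucp1, 0.84 log2 units, lay between 7.88 and 8.72, with 8 arrays below it. Those 8 were every 5-day array, 42-day replicates 1 to 3 and chow replicate 1. The 4 above were 42-day replicate 4 and chow replicates 2, 3 and 4. Among the 8 arrays below the gap r was 0.434 for Ucp1 with Cidea, 0.044 for Ucp1 with Otop1 and 0.14 for Cidea with Otop1. There 0 of 28 pairs passed the permutation test. That cut was added after the data were seen and narrows the range of Ucp1 by its construction. Leaving out each array in turn kept arrays on both sides of the gap. In those runs r of Ucp1 with Cidea was 0.938 to 0.971, and of Ucp1 with Otop1 0.812 to 0.9. Without the 2 arrays farthest from the median of the first gene, r was 0.894 for Ucp1 with Cidea, 0.613 for Ucp1 with Otop1 and 0.582 for Cidea with Otop1. After each group's mean was taken away, Ucp1 with Cidea had r = 0.919 (exact p = 0.00145 over 13824 pairings of the within-group orders, adjusted p = 0.0405) and was the 1 pair of 28 to pass. Ucp1 with Otop1 had 0.807 (adjusted p = 0.0856) and Cidea with Otop1 0.795 (adjusted p = 0.0830) by the same exact test.

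**Figure D3:**
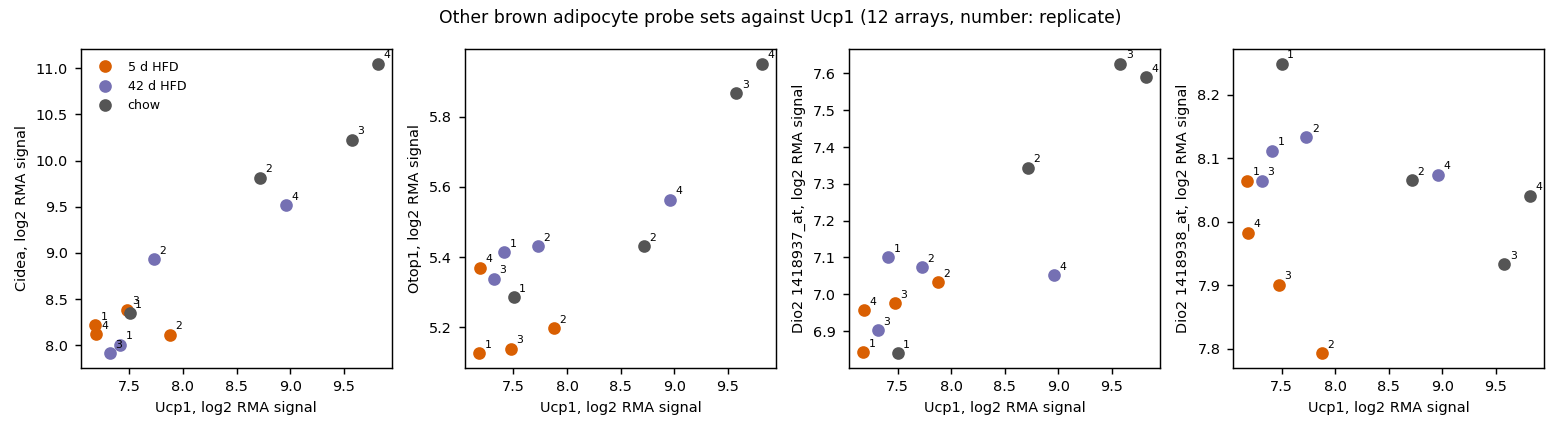
Log2 signal of Cidea, Otop1 and Dio2 probe sets 1418937_at and 1418938_at against that of Ucp1 over the 12 arrays; each point is an array, coloured by group (5-day, 42-day, chow). Chow replicates 3 and 4 are the 2 highest arrays in Ucp1, Cidea, Otop1 and Dio2 1418937_at, but not in Dio2 1418938_at (r = -0.138 with Ucp1).

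Which genes correlated with Ucp1 past the test depended on the probe set read. Over all 91 pairs of the 14 probe sets, 8 passed by Pearson's r, 0 by Spearman's rho and 0 after group means were taken away. Dio2 1418937_at correlated with Ucp1 at r = 0.897 (permutation adjusted p = 0.00983 over the 91) and rho = 0.748 (permutation adjusted p = 0.111), and without the 2 farthest arrays r was 0.683. Dio2 1418938_at correlated with Ucp1 at r = -0.138 and 1426081_a_at at r = 0.535, neither past the permutation test. Zic1 1439627_at had r = 0.759 with Ucp1 (permutation adjusted p = 0.0332; rho = 0.762, adjusted p = 0.111; r = 0.517 without the 2 farthest arrays), and the brighter Zic1 1423477_at had r = 0.284 and did not pass. The probe sets of one gene also parted: Dio2 1418937_at and 1418938_at correlated at r = -0.218, not past the permutation test.

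**Figure D4:**
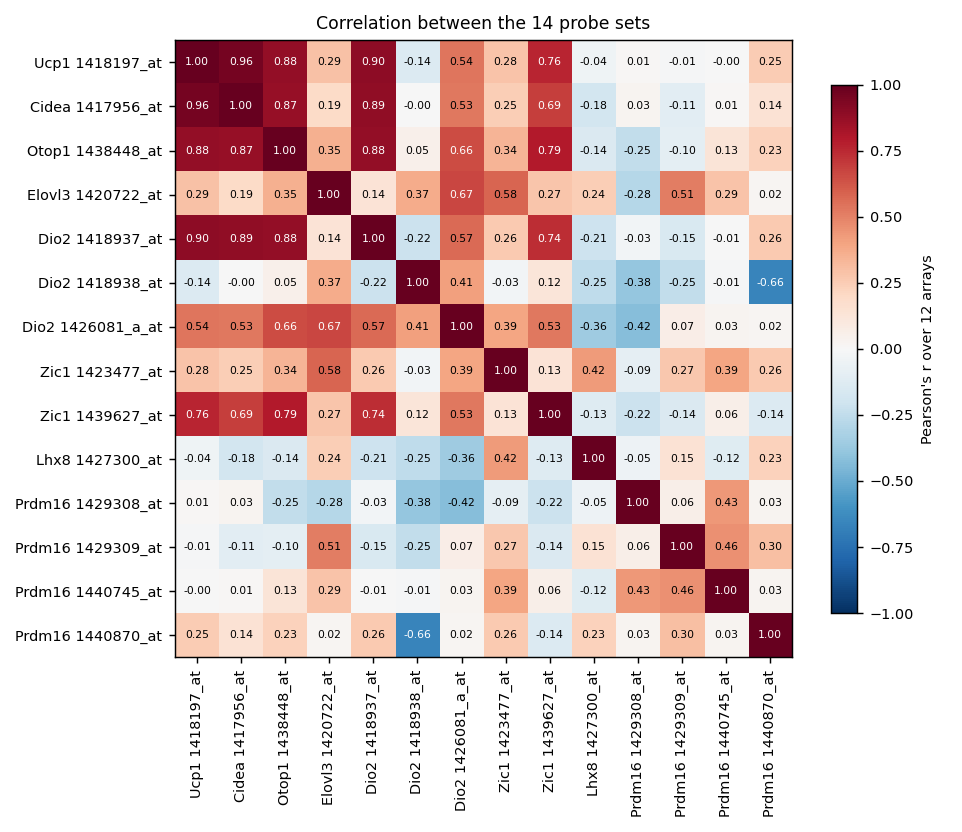
Pearson's r over the 12 arrays for every pair of the 14 probe sets, with red for positive and blue for negative values. The block of high values joins Ucp1, Cidea, Otop1 and Dio2 1418937_at, with Zic1 1439627_at beside it, and the other probe sets of Dio2, Zic1 and Prdm16 lie outside.

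White and pan-adipocyte markers were read beside these genes. Of 14 listed, 12 had a probe set with their symbol alone. Their mean log2 signal ran from 10.25 to 10.53 in the 5-day arrays, from 10.19 to 10.77 in the 42-day arrays and from 10.55 to 11.15 in the chow arrays, and their summed linear signal from 47777 to 54139 in 5-day arrays, from 50134 to 58497 in 42-day arrays and from 54815 to 74192 in chow arrays. At 5 days against chow 9 of 12 were lower and 2 fell, the hormone Retn (-0.97) and the droplet protein Cidec (-1.33). Hoxc10, a homeobox gene also made in hind limb muscle, fell at 42 days against chow (-0.24) and against 5 days (-0.33). Adipoq, the defining adipocyte hormone, lay between 10.58 and 11.51 in 5-day arrays, 10.36 and 11.91 in 42-day arrays and 11.59 and 12.91 in chow arrays. In bulk tissue fewer cells of a type and less RNA per cell cannot be told apart. Several of the 12, such as Car3, are also made by muscle fibres, and a mean of 4 markers, Adipoq, Retn, Cidec and Lipe, was added after the data were seen. Those 4 had the lowest 5-day changes of the 12 (-1.33 to -0.37), and the other 8 ran from -0.35 (Fabp4) to 0.26 (Nnat), with leptin (Lep) at -0.070. Neither a fit nor a correlation with their mean is therefore independent of the 5-day difference.

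The mean of those 4 markers was 9.29, 9.64, 9.88 and 9.36 in 5-day replicates 1 to 4, 9.26, 10.29, 9.49 and 10.14 in 42-day replicates 1 to 4, and 10.04, 10.19, 10.35 and 11.32 in chow replicates 1 to 4. Correlations with it were, by permutation test over the 8 genes, r = 0.838 for Ucp1 (adjusted p = 0.0008; rho = 0.874, adjusted p = 0.0016), 0.904 for Cidea (0.00016; rho = 0.888, 0.0016) and 0.76 for Otop1 (0.00984; rho = 0.711, 0.0326). Without the 2 farthest arrays r was 0.747 for Ucp1, 0.81 for Cidea and 0.651 for Otop1. After group means were taken away r was 0.692 for Ucp1, 0.81 for Cidea and 0.576 for Otop1, with an adjusted exact p = 0.176 in each. The other 5 genes did not pass. With the mean of the 12 markers r was 0.772 for Ucp1 (permutation adjusted p = 0.0088), 0.835 for Cidea (0.0064) and 0.711 for Otop1 (0.0269). For Otop1 rho was then 0.666 (permutation adjusted p = 0.0562). After group means were taken away the adjusted exact p with the 12 markers was 0.221 for each of these genes. With the 4 markers' mean as a covariate the 5-day change was -0.42 for Ucp1 (adjusted p = 0.606), -0.37 for Cidea (0.576) and -0.19 for Otop1 (0.452), and with the 12 markers' mean it was -0.75 (0.277), -0.77 (0.215) and -0.26 (0.237) for the same genes. The part of adipocyte content in these differences was not tested.

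**Figure D5:**
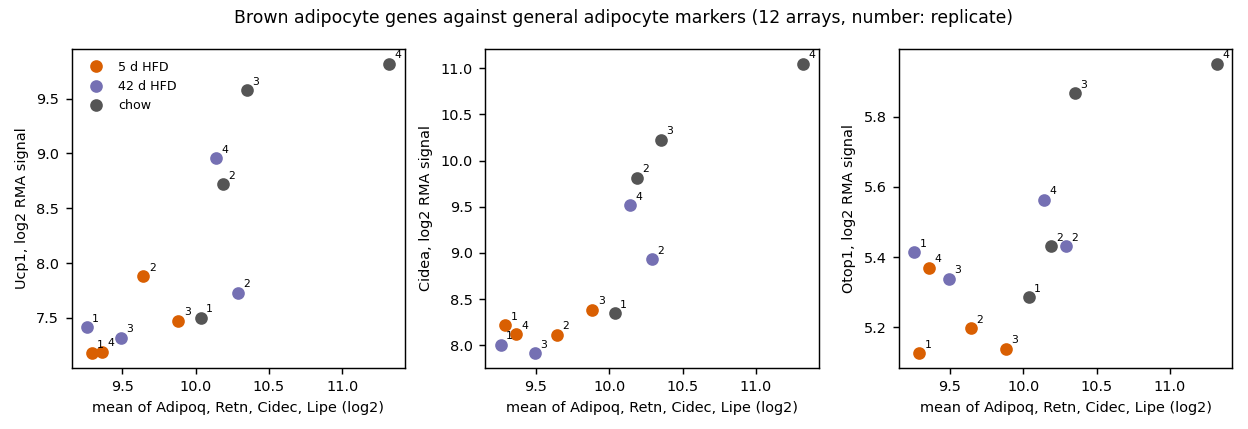
Log2 signal of Ucp1, Cidea and Otop1 in the 12 arrays against the mean log2 signal of the 4 adipocyte markers; each point is an array, coloured by group. Chow replicate 1, with a marker mean of 10.04, has Ucp1 at 7.50, while chow replicates 2 and 3, with 10.19 and 10.35, have it at 8.72 and 9.58.

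From chow replicate 1 to 4 both the mean of the 4 markers and Ucp1 rose, though by unlike steps. In chow replicate 1 the 4 markers averaged 10.04, against 10.19 and 10.35 in replicates 2 and 3. Adipoq there was 11.59, against 11.67 and 11.82 in those 2. In the same array Ucp1 was 7.50, against 8.72 and 9.58. Across groups the order was not the same throughout. In 42-day replicate 2 the 4 markers averaged 10.29, above chow replicate 2, while Ucp1 was 7.73 and Cidea 8.93, both below chow replicate 2.

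Other brown and beige fat genes were read from lists named for their role. The beta-adrenergic receptors Adrb1 and Adrb3 had no probe set with their symbol alone. Of the 19 measured regulators and receptors, among them Ppargc1a, Pparg and Ebf2, 0 rose and 0 fell at 5 days. Thra, the thyroid hormone receptor, fell by 0.27 ± 0.066 at 42 days against chow (limma, adjusted p = 0.0308), and Ppargc1a, the mitochondrial coactivator, fell by 0.44 ± 0.098 at 42 against 5 days (adjusted p = 0.0232). No regulator rose in any of the 3 comparisons.

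Of the 16 measured fuel, respiration and secreted genes, 1 rose and 1 fell at 5 days. Fabp3, a fatty acid binding protein of heart, muscle and brown fat, rose by 0.42 ± 0.057 (adjusted p = 0.00744) and again at 42 days against chow by 0.63 (0.000264). Nrg4, a factor secreted by brown fat, fell at 5 days by 0.59 ± 0.14 (adjusted p = 0.0388), being 7.13, 7.03, 6.96 and 6.74 in 5-day replicates 1 to 4, 7.08, 7.25, 7.20 and 7.41 in 42-day replicates and 7.30, 7.27, 7.61 and 8.06 in chow replicates. All 4 of its 5-day arrays were below every chow array, as in 6.06% of all probe sets. At 42 against 5 days 3 rose, Slc27a2 (0.41), Slc27a1 (0.24) and Fabp3 (0.21), proteins that take up or bind fatty acids. Against chow Slc27a2 was at 0.061 at 42 days (limma, adjusted p = 0.806) and at -0.35 at 5 days (0.0834). Its 42-day replicates had the same order as albumin, and in the 5-day group both were highest in replicate 4. In the chow group the order differed, since albumin was highest in replicate 1 (10.03), where Slc27a2 was lowest (7.93). The part of liver transcripts in the rise of Slc27a2 was not tested.

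Slc36a2, an amino acid transporter used as a brown and beige marker, fell in both comparisons with chow. It had 8.03, 8.03, 8.41 and 7.80 in 5-day replicates 1 to 4, 7.70, 8.46, 7.92 and 8.41 in 42-day replicates and 8.56, 8.86, 9.33 and 9.53 in chow replicates. It fell by 1.0 ± 0.21 at 5 days (limma, adjusted p = 0.0284), and by 0.95 ± 0.21 at 42 days (adjusted p = 0.0202). All 8 high-fat arrays lay below the lowest chow array, replicate 1. In 6.06% of all probe sets every 5-day array was below every chow array. The share with the 42-day arrays, or all 8 high-fat arrays, below every chow array is not given. Of the other 7 beige genes measured, Tbx1 fell at 42 against 5 days by 0.28 ± 0.076 (adjusted p = 0.0408) and 0 passed against chow.

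Muscle has heat genes of its own. Sln, sarcolipin, which uncouples the calcium pump of the fibre, was at -0.039 at 5 days (adjusted p = 0.895), 0.36 at 42 days (0.170) and 0.40 for 42 against 5 days (0.0894). Ucp3, the muscle paralogue of Ucp1, lay between 12.26 and 12.83 in all arrays and was at -0.014 (0.947), -0.17 (0.325) and -0.16 (0.273). Of the 6 measured genes of that list, Sln, Atp2a1, Atp2a2, Ryr1 and Casq1 were not called in any comparison. The sixth, Mlip, which codes for a lamin-interacting protein of muscle and is not itself a heat-producing protein, rose by 0.25 at each time against chow. Myog, a myogenic factor, fell at 42 days by 0.34 and at 42 against 5 days by 0.40, the only call among 6 myogenic lineage genes. Ucp2 had no probe set with its symbol alone.

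Other cells in the muscle were followed by their markers. Of 5 measured Schwann cell and neuron markers 1 was called: Dbh, which makes noradrenaline, the transmitter that switches brown fat on, had 9.86, 9.57, 9.72 and 9.51 in 5-day replicates 1 to 4, 9.90, 9.78, 9.85 and 9.76 in 42-day replicates and 9.97, 9.94, 9.97 and 10.02 in chow replicates. It fell at 5 days by 0.31 ± 0.068 (limma, adjusted p = 0.0349), with each 5-day array below each chow array, as in 6.06% of all probe sets. Of 6 endothelial markers Vwf (0.33) and Cldn5 (0.37) rose at 5 days, Pecam1 (0.43) rose at 42 days and Vwf fell at 42 against 5 days (-0.33). Of 6 macrophage markers Adgre1 fell at 5 days (-0.23) and Lyz2 rose at 42 days (0.35). Their part in the member genes' differences was not tested.

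Outside the 8 members, the genes most like Ucp1 over the 12 arrays were Cox6a1 (r = 0.936), Pygl (0.923), Adig (0.919), Cdo1 (0.913) and Agpat2 (0.913). Ucp1 and Cidea themselves correlated at 0.957. Outside the members, the genes most like Cidea were Cox6a1 (0.971), Cdo1 (0.962), Agpat2 (0.957), Plin2 (0.955) and Pde3b (0.954). Pearson's r here is a description over 12 arrays, chosen as the highest among the measured genes other than members. Of these genes, Plin2 codes for a lipid droplet coat protein, Agpat2 for an enzyme of triglyceride synthesis and Adig for an adipocyte protein.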

How the data were processed

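The values deposited by the authors were log2 signals of 45098 probe sets on 12 arrays. RMA is named, with no version, per the submitters' processing notes, and the scale was read from the values themselves. Left out were 61 controls, 932 probe sets with several symbols and 9160 with none.

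For each of 18193 genes the brightest probe set on average was used (9010 had a choice), with no filter on dim genes. Group means were fitted to all 12 arrays with limma 3.58.1 in R 4.3.3, two-sided, with Benjamini-Hochberg adjustment over all genes of a contrast and a threshold of 0.05. A second fit used all 34945 probe sets with 1 symbol. Correlations used 100000 permutations of the arrays, or exact permutation within groups (Python 3.11.15). On simulated data with 18193 genes, the 5-day comparison recovered 92% of log2 changes of 0.5 and 98% of changes of 1, and 5.94% of its calls were false. The simulation drew independent noise for each gene and held no shift shared across an array. Its rates are therefore not those of these arrays, nor of genes with a wide spread such as Ucp1.

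The members, the lists (fat, muscle, endothelial, macrophage, nerve, liver and skin genes) and the tests were chosen with earlier results of these data known. Beside the 8 genes, the rule named Ucp2, Ucp3, Sln, up to 4 called genes of each list, and the 5 genes most like a member that spanned over 1 log2 unit. Other genes of the lists that the text names were chosen after their values were seen. Alternatives were the normalization, centring, probe set choice, dim filter, prior, samples fitted, replicate block, adipocyte covariates and leaving out each array.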

Additional observations from a re-analysis of the deposited data

Results flagged for a closer look

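Elovl3 differed between the 2 times on the diet: its change at 42 days against chow (0.17) was higher than that at 5 days (-0.10) by 0.27 log2 units, and this difference passed its own test (limma, adjusted p = 0.0273). No other brown adipocyte gene did. In the signal decile of Elovl3 the median of all probe sets was higher by 0.078 at 42 against 5 days. In none of the 48 groups of 4 arrays checked was an array far enough from the others in its group to pass Dixon's test, which chance alone passes in about 1 of 20 groups.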

How the results depend on the processing

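The number of the 8 genes called at 5 days against chow (1) became 0 under quantile normalization, a trended and robust prior, either adipocyte covariate (the mean of 12 markers, or that of 4, added after the data were seen) and the fit of 8 arrays, 3 with the replicate block, and 0 to 3 on leaving out each array in turn (3 without chow replicate 1 and 0 without any other). At 42 days against chow (0) it was 0 to 2 on leaving out each array (2 without chow replicate 1). At 42 against 5 days (1) it became 0 under quantile normalization and without the 40% dimmest genes, a filter that keeps 3 of the 8 (Ucp1, Cidea and Dio2), and 0 to 1 on leaving out each array (0 without 5-day replicate 2, 3 or 4 or 42-day replicate 1, 2 or 4). The F-test count (2) became 0 under quantile normalization and either covariate, 1 with the trended prior, 4 with the block and 0 to 4 on leaving out each array (4 without chow replicate 1; 0 without 5-day replicate 3 or 4 or 42-day replicate 1 or 2). The correlated pairs (3) became 10 when probe sets of a gene were averaged, 1 within groups and 0 among the 8 lower arrays, a setting added after the data were seen that narrows the range of Ucp1 by its construction, and stayed 3 without each array.

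Directions turned in genes that did not pass. On leaving out single arrays, Zic1 at 5 days ran from -0.10 to 0.0051, Dio2 at 42 days from -0.023 to 0.083 and Prdm16 at 42 against 5 days from -0.016 to 0.088. Zic1 at 5 days was 0.032 under quantile normalization, 0.0093 with median centring, 0.10 and 0.15 with the 12- and 4-marker covariates, 0.0037 without chow replicate 3 and 0.0051 without 5-day replicate 3. Dio2 at 42 days was -0.12 with the mean of its probe sets, -0.0013 and -0.025 with the covariates and -0.023 without chow replicate 3, and Zic1 -0.043 with the mean of its probe sets. Prdm16 at 42 against 5 days was -0.035 under quantile normalization, -0.023 with the mean of its probe sets and -0.016 without 5-day replicate 4. The causes were not tested.

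Over all genes the 692 called at 5 days became 160 under quantile normalization, 1112 with centring, 147 and 39 with the covariates, 7 with 8 arrays and 6 (without 5-day replicate 2) to 790 without single arrays. The 1011 at 42 days became 439 and 117 with the covariates and 228 (without chow replicate 3) to 1079 without single arrays. The 1550 at 42 against 5 days became 358 under quantile normalization, 529 with mean probe sets and 0 (without 42-day replicate 1) to 1972 without single arrays, and the 2282 of the F-test became 1195 under quantile normalization, 1218 with the 4-marker covariate and 735 (without 42-day replicate 1) to 2242 without single arrays.

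The replicate numbers did not pair the arrays throughout. Of 12 same-number pairs 3 correlated over 0.1 (-0.176 to 0.221), and 4 arrays were closest to an array of their own number. Those 3 pairs were the replicate 1 arrays of the 3 groups with each other (0.208, 0.215 and 0.221). Pairs of different numbers reached 0.232. With the replicate block, Ucp1 (adjusted p = 0.0372) and Otop1 (0.0352) joined Cidea at 5 days. Dim probe sets (Otop1, Lhx8 and Zic1 1439627_at) lie near the low end of the scale, where differences are compressed.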
